A study of Mus musculus with 12 samples.

Results

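The genes that build cholesterol and fatty acids, with the sensor proteins that switch them, were described across cultured pancreatic cancer cells of mice with and without mutant p53. The 34 members were listed by name, and a member was measured by the probe sets of the array whose annotation gives its symbol and no other. Of the 34, 33 had such a probe set, 77 probe sets in all, out of 18193 genes that the array measured in this way; Acat2 was not analysed here. Members with several probe sets, 24 of the 33, were read from the probe set with the highest mean over the 12 arrays, and for some of them dimmer probe sets are given too.

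The arrays held 4 groups of 3 cultures each. All cells came from primary pancreatic tumors of mice in which Pdx1-Cre, active in the pancreatic lineage, switched on K-ras G12D. The mice were heterozygous at Trp53, with a floxed allele (fl/+) for fl-CCs and an R172H allele (R172H/+) for mt-CCs. The labels give fl-CCs as null for p53, and the state of the other Trp53 allele was not analysed here. In mt-CCs the recombinase switched on p53 R172H from the endogenous locus. The other pair was made from fl-CCs: EV cells carried the empty plasmid, R175H cells carried human p53 R175H, and both were kept in 0.6 mg/ml G418, which the first pair was not. Medium was DMEM with 10% FBS and cells were taken at 60% confluency. Each genotype was 1 cell line, so the mt-CCs and fl-CCs comparison cannot tell p53 apart from other differences between a pair of lines. The labels name no separate transfections within EV or R175H cells. The comparison of these likewise cannot tell p53 R175H apart from other differences between the transfected populations. The p-values rest on how far cultures of the same line varied. Trp53 was not analysed here, so the labels were not checked against it. The values are log2 intensities. They ran from 1.71 to 14.31, every array had a median of 5.59, replicates correlated at r = 0.994 to 0.996 and arrays of different groups at 0.959 to 0.990.

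Cells make cholesterol from acetyl-CoA through the mevalonate pathway to squalene, which is folded into lanosterol and trimmed to cholesterol, and they make fatty acids from the same acetyl-CoA. The transcription factors SREBP-1 and SREBP-2 turn on both arms. When sterols are plentiful, INSIG proteins hold SCAP and its SREBP cargo in the endoplasmic reticulum; when sterols are scarce, SCAP carries SREBP to the Golgi, where it is cut and freed to enter the nucleus. Tumor cells often run both arms at high rates, and this control makes the genes move together.

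RefSeq promoters (build GRCm38.p6) were at hand for 26 of the 33 members. In the 250 bases before the start site, searched on both strands, the CCAAT box (letters CCAAT) was found in 19 of 26 members, or 73.1%, against 33.8% of the 32851 promoters in the table, and the GC box (GGGCGG) likewise in 19 of 26 against 32.7%. Both stood together in 15 of 26 members, 57.7%, against 11% of all promoters. The palindromic E-box (CACGTG) was in 3 members, Hsd17b7, Insig1 and Sc5d, 11.5% against 6.02%, and the core letters of the sterol regulatory element (TCACNCCAC) were in 1 member, Hmgcs1, 3.85% against 1.05%. These are letter matches counted without a test. Where a member has several start sites the outermost was used, while the shares of all promoters counted every entry, so the sets compared are unlike. Shown are Mvd and Me1, with the largest differences of the mevalonate and fatty acid groups in mt-CCs, Hmgcs1, with the sterol element core, Msmo1, which like Hmgcs1 holds 3 CCAAT boxes, Insig1, the feedback sensor, and Ebp, which was called in neither mutant p53 comparison. The windows are chr8:122443423-122443672 for Mvd (minus strand), chr13:119690101-119690350 for Hmgcs1 (plus strand), chr8:64733579-64733828 for Msmo1 (minus strand), chr5:28071162-28071411 for Insig1 (plus strand), chr9:86695915-86696164 for Me1 (minus strand) and chrX:8193513-8193762 for Ebp (minus strand). Each lies directly upstream of the annotated start, and those of Mvd, Insig1 and Me1 also overlap the annotated genes 9330133O14Rik, Gm35223 and A330041J22Rik. Capitals mark every match to the 4 motifs, and the E-box of Insig1 lies between its nearest GC box and the start.
Mvd: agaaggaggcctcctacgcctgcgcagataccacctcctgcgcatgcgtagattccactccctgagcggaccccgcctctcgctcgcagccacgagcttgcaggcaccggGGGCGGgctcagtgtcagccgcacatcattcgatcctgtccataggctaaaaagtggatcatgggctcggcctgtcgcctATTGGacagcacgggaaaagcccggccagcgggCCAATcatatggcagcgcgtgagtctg
Hmgcs1: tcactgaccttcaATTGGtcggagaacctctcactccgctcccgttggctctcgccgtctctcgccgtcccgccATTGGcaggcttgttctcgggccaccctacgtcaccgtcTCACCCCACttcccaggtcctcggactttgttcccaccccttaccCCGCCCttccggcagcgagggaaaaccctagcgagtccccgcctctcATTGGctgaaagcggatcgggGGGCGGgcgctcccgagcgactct
Msmo1: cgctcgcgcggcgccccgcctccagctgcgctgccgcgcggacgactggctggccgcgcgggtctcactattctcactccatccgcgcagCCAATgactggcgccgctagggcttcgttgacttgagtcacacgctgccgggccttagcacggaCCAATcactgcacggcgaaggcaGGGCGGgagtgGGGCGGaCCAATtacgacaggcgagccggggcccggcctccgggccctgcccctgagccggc
Insig1: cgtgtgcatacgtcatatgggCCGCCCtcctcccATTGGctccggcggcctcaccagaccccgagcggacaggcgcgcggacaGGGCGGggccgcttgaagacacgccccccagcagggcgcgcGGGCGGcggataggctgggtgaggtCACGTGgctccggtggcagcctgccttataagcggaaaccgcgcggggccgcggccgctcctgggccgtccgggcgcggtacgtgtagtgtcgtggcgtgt
Me1: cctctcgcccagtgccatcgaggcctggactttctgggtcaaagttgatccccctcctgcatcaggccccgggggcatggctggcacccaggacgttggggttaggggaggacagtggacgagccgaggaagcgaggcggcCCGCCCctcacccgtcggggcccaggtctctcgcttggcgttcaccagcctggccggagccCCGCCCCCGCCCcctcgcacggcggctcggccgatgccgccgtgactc
Ebp: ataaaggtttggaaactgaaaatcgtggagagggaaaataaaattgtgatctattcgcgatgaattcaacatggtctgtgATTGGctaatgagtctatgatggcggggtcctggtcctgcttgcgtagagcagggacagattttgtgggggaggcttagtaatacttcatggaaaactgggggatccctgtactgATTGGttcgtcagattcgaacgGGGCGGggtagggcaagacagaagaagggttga

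In the endogenous comparison, mt-CCs against fl-CCs, 22 of the 33 members were lower, 1 was higher (Insig2) and 10 were not called by limma, with calls made where the p adjusted by Benjamini and Hochberg's method was 0.05 or below. Over all 18193 genes, 17.7% were called lower and 18.3% higher. The median log2 difference of the members was -0.50, against -0.01 for all genes. In the transfected comparison, R175H cells against EV cells, 28 members were lower, none higher and 5 not called, with 12.1% of all genes lower and 13% higher, and the median difference was -0.86, against -0.01 for all genes. The count of 0 higher members in limma was also 0 at an unadjusted p below 0.05 and under every alternative setting run for that comparison. All 22 members lower in mt-CCs were also lower in R175H cells, and the share of all genes lower in both was not counted here. These comparisons share no arrays, but the fit took 1 estimate of the spread from all 12 arrays. By the probe set used for each gene, the 6 lower in R175H cells alone were Hmgcs1, Mvk, Hsd17b7, Acaca, Scd1 and Elovl6. With the mean of all probe sets, limma also called Hmgcs1 (-0.30, adjusted p = 0.00879) and Scd1 (-0.31, adjusted p = 0.0310) lower in mt-CCs. Mvk was then not called in R175H cells (adjusted p = 0.138). In these bulk cultures, fewer cells of a type and less RNA per cell cannot be told apart.

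**Figure D1:**
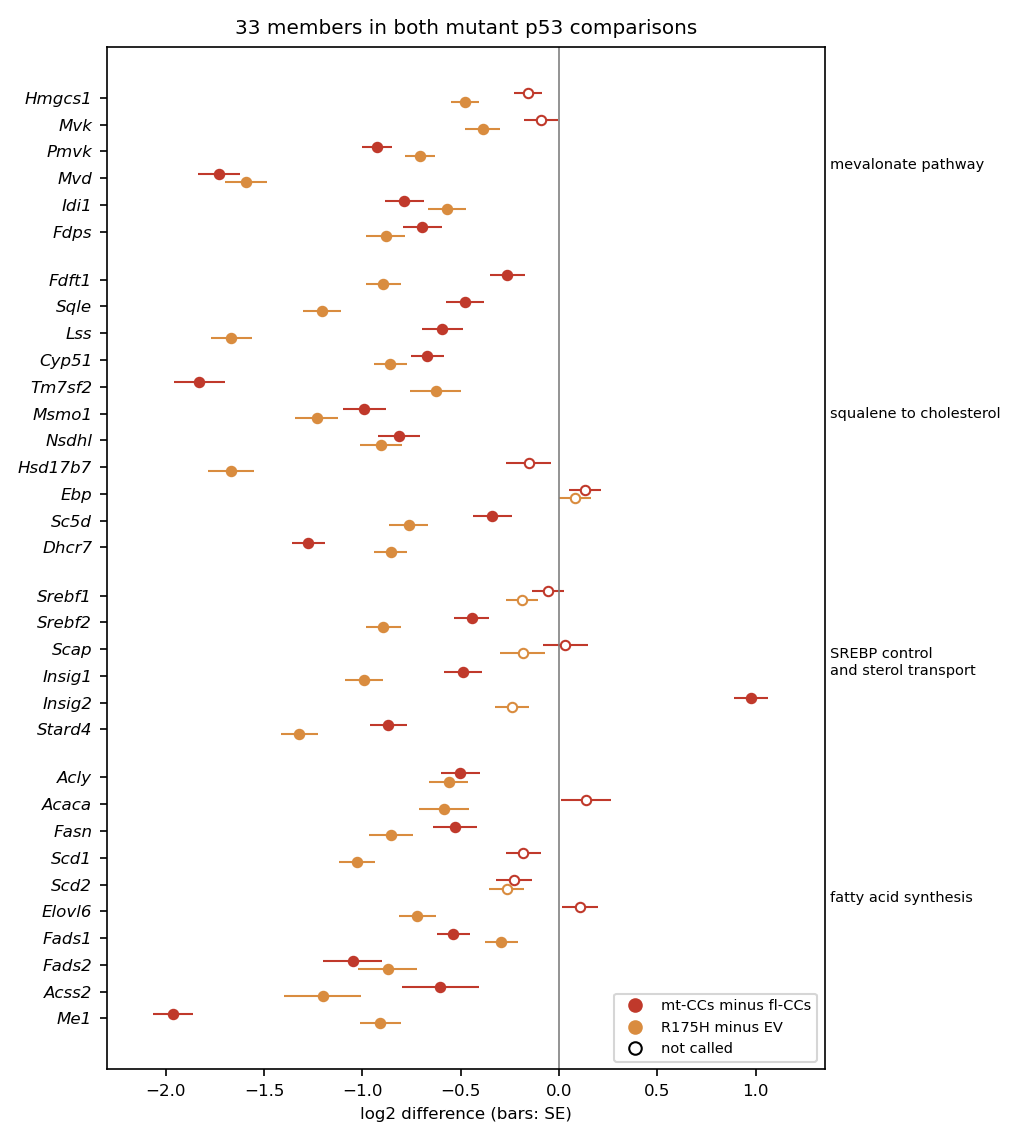
Log2 difference (x axis, bars show the SE) of each of the 33 measured members in mt-CCs minus fl-CCs (red) and R175H minus EV (orange), grouped by role; open circles were not called. Nearly all points lie left of 0, Insig2 is at 0.97 in mt-CCs, and Ebp is right of 0 in both comparisons without a call.

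Cells given the empty plasmid and G418 were compared with untreated fl-CCs. This shows transfection, vector and G418 selection together, without mutant p53, and they cannot be told apart. In EV cells 3 members were higher than in fl-CCs (Hsd17b7, Acly and Fasn), 1 was lower (Elovl6) and 29 were not called, with 7.84% of all genes higher and 7.24% lower. The median member difference was 0.15, against -0.01 for all genes. The call of Acly ended without replicate 1 or 2 of EV cells or of fl-CCs (0.34 to 0.43, adjusted p up to 0.0918), and that of Elovl6 without any EV array, R175H replicate 2 or 3, or fl-CC replicate 1 or 3 (-0.41 to -0.23, adjusted p up to 0.1001). Elovl6 was also not called with the mean of its 3 probe sets (-0.29, adjusted p = 0.282), nor Hsd17b7 when probe sets named _s_at or _x_at were left out, an alternative chosen after the data were seen (0.50, adjusted p = 0.0886). Lss, not called by its brightest probe set, was higher in EV cells with the mean of its 3 probe sets (0.70, adjusted p = 0.000828). This comparison shares fl-CCs with the endogenous comparison and EV cells with the transfected one. Because EV values were often the highest of the 4 groups, R175H cells were also set against fl-CCs directly, an alternative chosen after the data were seen: 25 members were lower, with 8.87% of all genes lower, and the median was -0.74. Tm7sf2, Acly, Acaca and Fasn were then no longer called lower and Scap was.

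**Figure D2:**
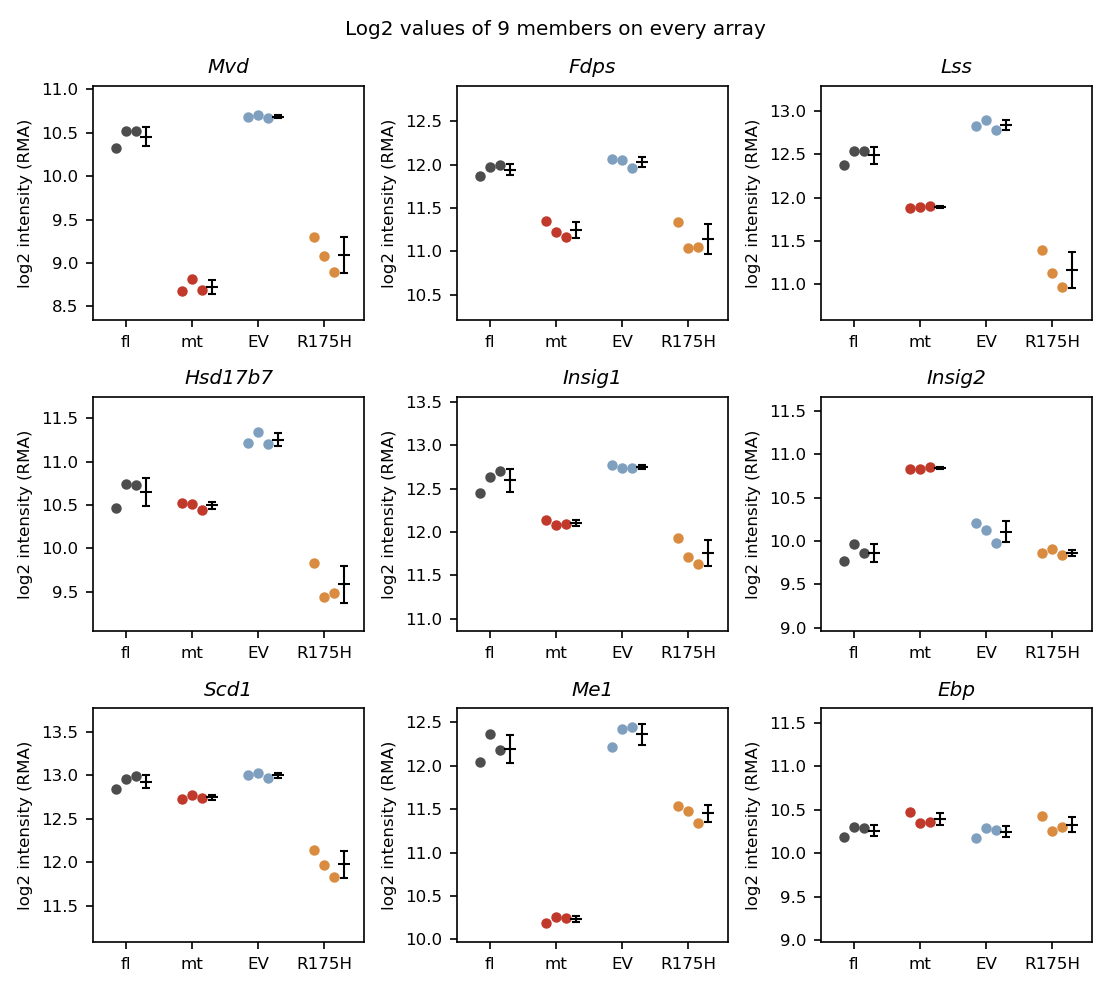
Log2 intensity (y axis, each panel spans the same range) of 9 members on every array; points are single arrays, the dash and bar beside them the mean and SD of 3. For Mvd, Fdps, Lss, Insig1 and Me1 the mt-CC and R175H arrays lie below all fl-CC and EV arrays, for Hsd17b7 and Scd1 the R175H arrays alone lie far below, Insig2 is highest in mt-CCs, and Ebp hardly moves.

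Among the 6 measured mevalonate pathway genes, 4 were lower in mt-CCs and all 6 in R175H cells. The shares of all genes were 17.7% and 12.1%. Mvd encodes mevalonate diphosphate decarboxylase, which makes isopentenyl diphosphate, the building block of all isoprenoids. Its log2 values were 10.33, 10.52 and 10.52 in fl-CCs, 8.68, 8.81 and 8.69 in mt-CCs, 10.68, 10.70 and 10.67 in EV cells and 9.30, 9.08 and 8.89 in R175H cells. No array with mutant p53 reached any array without it. Mvd was 3.32-fold lower in mt-CCs, a log2 difference of -1.73 ± 0.11 (SE, n = 3 per group, adjusted p = 9.59e-08), and 3.02-fold lower in R175H cells, -1.59 ± 0.11 (adjusted p = 1.04e-06). The test of the difference between the 2 was not called (-0.14 ± 0.15, adjusted p = 0.576).

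Pmvk encodes phosphomevalonate kinase, the step just before Mvd. It read 12.48, 12.47 and 12.51 in fl-CCs, 11.60, 11.47 and 11.61 in mt-CCs, 12.37, 12.44 and 12.41 in EV cells and 11.77, 11.66 and 11.67 in R175H cells. The groups with and without mutant p53 did not overlap, and the 3 EV arrays lay just below the 3 fl-CC arrays. The log2 difference was -0.93 ± 0.08 in mt-CCs (adjusted p = 1.33e-06) and -0.71 ± 0.08 in R175H cells (adjusted p = 4.70e-05).

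Fdps joins isoprene units to farnesyl diphosphate, the branch point to sterols, dolichol and protein prenylation. Values of Fdps were 11.87, 11.97 and 11.99 in fl-CCs, 11.35, 11.23 and 11.16 in mt-CCs, 12.07, 12.05 and 11.97 in EV cells and 11.34, 11.04 and 11.05 in R175H cells. All 6 mutant p53 arrays were lower than the 6 others. Fdps was lower by -0.70 ± 0.10 on the log2 scale in mt-CCs (adjusted p = 0.000159) and by -0.88 ± 0.10 in R175H cells (adjusted p = 6.62e-05). Idi1, the isomerase between Mvd and Fdps, was also lower in both, at -0.79 ± 0.10 and -0.57 ± 0.10.

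Hmgcs1, the cytosolic synthase that makes HMG-CoA, read 13.46, 13.42 and 13.45 in fl-CCs, 13.23, 13.29 and 13.33 in mt-CCs, 13.63, 13.58 and 13.57 in EV cells and 13.11, 13.10 and 13.13 in R175H cells. The 4 groups were separate, with R175H cells lowest and EV cells highest. By this probe set it was -0.48 ± 0.07 in R175H cells (adjusted p = 0.000493) and -0.16 ± 0.07 in mt-CCs, which was not called (adjusted p = 0.122). The 3 next brightest Hmgcs1 probe sets were called lower in both, at -0.45 to -0.39 in mt-CCs and -1.04 to -0.87 in R175H cells. Mvk, mevalonate kinase, was lower in R175H cells alone (-0.39 ± 0.09, adjusted p = 0.00831), and its value in mt-CCs was -0.09 ± 0.09. With the mean of both its probe sets the R175H value of Mvk was -0.25 and not called (adjusted p = 0.138).

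Of the 11 genes that turn farnesyl diphosphate into cholesterol, 9 were lower in mt-CCs and 10 in R175H cells. For all genes these shares were 17.7% and 12.1%. Fdft1 and Sqle make squalene and its epoxide, the first steps committed to sterols. Sqle, a rate-controlling enzyme, read 11.63, 11.72 and 11.72 in fl-CCs, 11.11, 11.21 and 11.33 in mt-CCs, 11.85, 11.82 and 11.83 in EV cells and 10.79, 10.47 and 10.61 in R175H cells. R175H arrays were the lowest, mt-CC arrays the next, and neither overlapped its control. Sqle was -0.48 ± 0.10 in mt-CCs (adjusted p = 0.00226) and -1.21 ± 0.10 in R175H cells (adjusted p = 4.50e-06). Fdft1 was 12.02, 12.11 and 12.07 in fl-CCs, 11.86, 11.75 and 11.80 in mt-CCs, 12.23, 12.20 and 12.30 in EV cells and 11.49, 11.37 and 11.19 in R175H cells, again without overlap. Its R175H difference was -0.89 ± 0.09, and the mt-CC difference of -0.26 ± 0.09 was close to the threshold (adjusted p = 0.0426). When 1 array at a time was left out, the call held only without mt-CC replicate 1 or R175H replicate 1 or 3 and ended for the other 9 of 12 arrays, with values of -0.29 to -0.23 and an adjusted p of up to 0.121. With the mean of its 4 probe sets, of which the dimmer pair was called in neither comparison, Fdft1 was -0.19 in mt-CCs and not called (adjusted p = 0.158).

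Lss closes the ring, turning squalene epoxide into lanosterol. Lss read 12.37, 12.54 and 12.54 in fl-CCs, 11.88, 11.89 and 11.90 in mt-CCs, 12.82, 12.90 and 12.78 in EV cells and 11.39, 11.14 and 10.97 in R175H cells. The groups fell in 4 separate steps, with EV cells at the top and R175H cells at the bottom. The difference was -0.59 ± 0.11 in mt-CCs (adjusted p = 0.000883) and -1.67 ± 0.11, a 3.17-fold lower level, in R175H cells (adjusted p = 6.80e-07). A dimmer Lss probe set gave -2.92 ± 0.16 in R175H cells and -0.32 ± 0.16, not called, in mt-CCs.

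Hsd17b7 encodes a keto-reductase that works with Nsdhl and Msmo1 to strip methyl groups from the sterol ring. Its arrays were 10.47, 10.75 and 10.73 in fl-CCs, 10.53, 10.51 and 10.45 in mt-CCs, 11.21, 11.34 and 11.21 in EV cells and 9.83, 9.44 and 9.49 in R175H cells. The fl-CC and mt-CC arrays overlapped, all EV arrays were higher than these, and all R175H arrays lower. Hsd17b7 was -1.67 ± 0.12 in R175H cells against EV cells (adjusted p = 1.36e-06), -0.16 ± 0.12 in mt-CCs (adjusted p = 0.367) and 0.60 ± 0.12 in EV cells against fl-CCs (adjusted p = 0.00492). Its partners were lower in both comparisons: Msmo1 was -0.99 ± 0.11 in mt-CCs and -1.23 ± 0.11 in R175H cells. For Nsdhl the values were -0.82 ± 0.11 and -0.90 ± 0.11, and for Cyp51, lanosterol demethylase, -0.67 ± 0.08 and -0.86 ± 0.08.

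Tm7sf2 and Dhcr7 are reductases of late sterol intermediates. Tm7sf2 read 9.54, 9.58 and 9.61 in fl-CCs, 8.10, 7.62 and 7.51 in mt-CCs, 9.85, 9.81 and 9.90 in EV cells and 9.33, 9.16 and 9.19 in R175H cells. Here mt-CCs, not R175H cells, were lowest. The difference was -1.83 ± 0.13, or 3.56-fold lower, in mt-CCs (adjusted p = 3.85e-07) and -0.63 ± 0.13 in R175H cells (adjusted p = 0.00481). Dhcr7, the last enzyme of cholesterol synthesis on its main route, was likewise lowest in mt-CCs, with 10.75, 10.85 and 10.96 in fl-CCs, 9.66, 9.54 and 9.54 in mt-CCs, 10.81, 10.77 and 10.78 in EV cells and 9.99, 9.97 and 9.82 in R175H cells. Its differences were -1.27 ± 0.09 (adjusted p = 2.16e-07) and -0.86 ± 0.09 (adjusted p = 2.68e-05).

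Sc5d, a sterol desaturase, read 10.63, 10.83 and 10.78 in fl-CCs, 10.54, 10.46 and 10.23 in mt-CCs, 10.79, 10.85 and 10.79 in EV cells and 10.15, 9.98 and 9.99 in R175H cells. R175H arrays were the lowest, and mt-CC arrays lay below all fl-CC arrays. The values were -0.34 ± 0.10 in mt-CCs (adjusted p = 0.0204) and -0.77 ± 0.10 in R175H cells (adjusted p = 0.000193), but a dimmer Sc5d probe set was 0.33 ± 0.10 higher in mt-CCs (adjusted p = 0.0215) while it was lower in R175H cells (-1.02 ± 0.10). The mt-CC call of the brightest set ended without fl-CC replicate 2 or 3 or mt-CC replicate 3 (-0.40 to -0.25 over all 12 omissions, adjusted p up to 0.0849). Ebp, the sterol isomerase, was the member of this group not called in either comparison, at 0.13 ± 0.08 in mt-CCs (adjusted p = 0.280) and 0.08 ± 0.08 in R175H cells (adjusted p = 0.582).

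The 6 genes of SREBP control and sterol transport were less uniform. In mt-CCs 3 were lower and 1 higher, against 17.7% and 18.3% of all genes. In R175H cells 3 were lower, against 12.1% of all genes. Srebf2, which encodes SREBP-2, the main driver of sterol genes, read 10.17, 10.32 and 10.31 in fl-CCs, 9.89, 9.80 and 9.77 in mt-CCs, 10.23, 10.34 and 10.17 in EV cells and 9.36, 9.46 and 9.25 in R175H cells. The fl-CC and EV arrays overlapped, and the mutant p53 groups lay below them. Srebf2 was -0.45 ± 0.09 in mt-CCs (adjusted p = 0.00214) and -0.89 ± 0.09 in R175H cells (adjusted p = 2.76e-05). Srebf1, which encodes SREBP-1, was not called in either, at -0.06 ± 0.08 (adjusted p = 0.673) and -0.19 ± 0.08 (adjusted p = 0.139). Scap was at 0.03 ± 0.11 (adjusted p = 0.882) and -0.18 ± 0.11 (adjusted p = 0.325).

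Insig1 and Insig2, paralogs that retain SCAP, parted in mt-CCs. Insig1, itself an SREBP target, read 12.45, 12.64 and 12.71 in fl-CCs, 12.14, 12.09 and 12.09 in mt-CCs, 12.78, 12.74 and 12.74 in EV cells and 11.93, 11.71 and 11.63 in R175H cells. Its arrays fell in 4 separate steps, as for Lss. Insig1 was -0.49 ± 0.10 in mt-CCs (adjusted p = 0.00192) and -0.99 ± 0.10 in R175H cells (adjusted p = 2.28e-05). Insig2 read 9.76, 9.96 and 9.86 in fl-CCs, 10.83, 10.83 and 10.85 in mt-CCs, 10.21, 10.13 and 9.97 in EV cells and 9.86, 9.90 and 9.83 in R175H cells. The 3 mt-CC arrays stood above the other 9. Insig2 was 0.97 ± 0.09, or 1.96-fold, higher in mt-CCs (adjusted p = 2.91e-06), and its other 2 probe sets were called higher too, while in R175H cells it was -0.24 ± 0.09, not called (adjusted p = 0.0763), with 1 of the other sets called at -0.30 ± 0.10 (adjusted p = 0.0492).

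Stard4 carries cholesterol between membranes and is induced when sterols run low. It read 12.07, 12.14 and 12.24 in fl-CCs, 11.25, 11.20 and 11.40 in mt-CCs, 12.27, 12.41 and 12.34 in EV cells and 11.11, 11.06 and 10.88 in R175H cells. Every mutant p53 array was below every other array. Stard4 was -0.87 ± 0.09 in mt-CCs (adjusted p = 1.60e-05) and -1.32 ± 0.09, or 2.50-fold lower, in R175H cells (adjusted p = 1.61e-06).

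In the fatty acid group, 6 of 10 genes were lower in mt-CCs and 9 of 10 in R175H cells. Among all genes 17.7% and 12.1% were. Me1, malic enzyme, supplies NADPH for chain synthesis. Me1 read 12.04, 12.36 and 12.18 in fl-CCs, 10.19, 10.26 and 10.25 in mt-CCs, 12.22, 12.42 and 12.44 in EV cells and 11.53, 11.48 and 11.34 in R175H cells. The mt-CC arrays were by far the lowest, with R175H arrays between them and the overlapping controls. The difference of -1.96 ± 0.10, 3.90-fold lower, in mt-CCs (adjusted p = 2.12e-08) was the largest of any member there, and that in R175H cells was -0.91 ± 0.10 (adjusted p = 7.15e-05).

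Acss2 and Acly feed acetyl-CoA into both arms, from acetate and from citrate. Acss2 read 10.00, 10.39 and 10.33 in fl-CCs, 9.25, 9.61 and 10.05 in mt-CCs, 10.49, 10.60 and 10.68 in EV cells and 9.69, 9.11 and 9.35 in R175H cells. One mt-CC array lay within the range of fl-CCs, the only overlap among the 22 genes called lower in mt-CCs, and the R175H arrays were all below EV arrays. Acss2 was -0.60 ± 0.20 in mt-CCs (adjusted p = 0.0344) and -1.20 ± 0.20 in R175H cells (adjusted p = 0.000973). Its mt-CC call ended without fl-CC replicate 2 or 3 or mt-CC replicate 1 or 2, with values of -0.81 to -0.41 over the 12 omissions and an adjusted p of up to 0.135. A dim Acss2 probe set was 0.60 ± 0.13 higher in R175H cells (adjusted p = 0.00496), the only 1 of the 77 called higher there. Acly was -0.50 ± 0.10 in mt-CCs and -0.56 ± 0.10 in R175H cells.

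Acaca makes malonyl-CoA, the committed step of fatty acid synthesis, and Fasn builds palmitate from it. Acaca read 9.21, 8.80 and 8.86 in fl-CCs, 8.99, 9.09 and 9.20 in mt-CCs, 9.22, 9.42 and 9.33 in EV cells and 8.90, 8.76 and 8.54 in R175H cells. The mt-CC arrays lay within the range of fl-CCs, and R175H arrays were below EV arrays but overlapped fl-CCs. Acaca was 0.14 ± 0.13 in mt-CCs (adjusted p = 0.489) and -0.59 ± 0.13 in R175H cells (adjusted p = 0.00642); its other probe set was 0.44 ± 0.11 higher in mt-CCs (adjusted p = 0.00946). Fasn was -0.53 ± 0.11 in mt-CCs (adjusted p = 0.00309) and -0.85 ± 0.11 in R175H cells (adjusted p = 0.000213), where EV cells had been 0.54 ± 0.11 above fl-CCs (adjusted p = 0.00816).

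The desaturases and the elongase finish the chains. Scd1, which makes oleate from stearate, read 12.84, 12.96 and 12.99 in fl-CCs, 12.72, 12.78 and 12.74 in mt-CCs, 13.00, 13.03 and 12.97 in EV cells and 12.13, 11.96 and 11.82 in R175H cells. R175H arrays stood well below the other 9. Scd1 was -1.03 ± 0.09, or 2.04-fold lower, in R175H cells (adjusted p = 9.64e-06) and -0.18 ± 0.09 in mt-CCs (adjusted p = 0.163), where its dimmer probe set was called at -0.43 ± 0.14 (adjusted p = 0.0380). Elovl6, which lengthens palmitate, read 11.07, 10.70 and 10.81 in fl-CCs, 10.95, 10.98 and 10.97 in mt-CCs, 10.51, 10.51 and 10.55 in EV cells and 9.78, 9.81 and 9.82 in R175H cells. Both transfected groups were below both untransfected ones, R175H cells most. Elovl6 was -0.72 ± 0.09 in R175H cells against EV (adjusted p = 0.000193), 0.11 ± 0.09 in mt-CCs (adjusted p = 0.454) and -0.34 ± 0.09 in EV cells against fl-CCs (adjusted p = 0.0359).

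Fads2, the first desaturase of polyunsaturated fatty acids, read 10.95, 11.06 and 10.99 in fl-CCs, 9.54, 10.31 and 10.01 in mt-CCs, 11.06, 11.14 and 11.12 in EV cells and 10.27, 10.25 and 10.19 in R175H cells. Both mutant p53 groups lay below their controls, with a wide spread in mt-CCs. It was -1.05 ± 0.15 (adjusted p = 0.000162) and -0.87 ± 0.15 (adjusted p = 0.00141). Its neighbour in the pathway Fads1 was -0.54 ± 0.08 in mt-CCs and -0.29 ± 0.08 in R175H cells (adjusted p = 0.0253), a call that ended without any EV array or without R175H replicate 1 or 3 (-0.31 to -0.26, adjusted p up to 0.0848) and with the mean of both its probe sets (-0.32, adjusted p = 0.0545). Scd2 was called in neither comparison by its brightest probe set (-0.23 ± 0.09, adjusted p = 0.0761, and -0.27 ± 0.09, adjusted p = 0.0557), while 2 dimmer sets were called lower in both, at -0.92 and -1.09 in R175H cells.

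**Figure D3:**
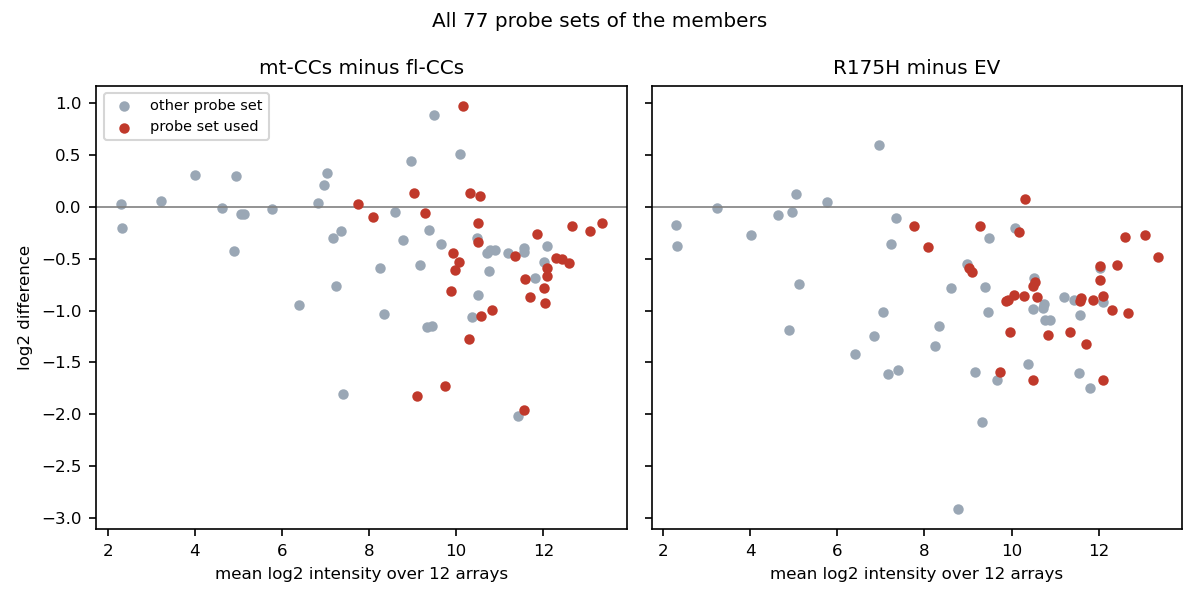
Log2 difference (y axis) against mean log2 intensity over the 12 arrays (x axis) for all 77 probe sets of the members, with the probe set used for each gene in red and the others in grey. In R175H minus EV 61 of 77 probe sets were called lower and 1 higher, against 11.7% and 11.9% of the 34945 probe sets with 1 symbol, and in mt-CCs minus fl-CCs 43 lower and 5 higher, against 17% and 17.6%; the brightest red points sit closer to 0 than many dimmer sets.

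Whether endogenous and transfected mutant p53 differed in size was tested by the difference of the 2 differences, mt-CCs minus fl-CCs less R175H minus EV. By it 13 members were above 0 and 3 below, with 16.1% and 15.9% of all genes, a median of 0.24 for the members and 0.00 for all genes. Above 0, so that the fall was smaller in mt-CCs or the sign opposite, were Hsd17b7 (1.51 ± 0.16, adjusted p = 2.29e-05), Insig2 (1.21 ± 0.12, adjusted p = 1.30e-05), Lss (1.07 ± 0.15, adjusted p = 0.000173), Scd1 (0.85 ± 0.13), Elovl6 (0.83 ± 0.13), Sqle (0.73 ± 0.14), Acaca (0.72 ± 0.18) and Fdft1 (0.63 ± 0.13), and with smaller values Insig1, Srebf2, Stard4, Sc5d and Hmgcs1. Below 0, with the larger fall in mt-CCs, were Tm7sf2 (-1.20 ± 0.18, adjusted p = 0.000378), Me1 (-1.05 ± 0.15, adjusted p = 0.000167) and Dhcr7 (-0.42 ± 0.12, adjusted p = 0.0223). Of the 6 members lower in R175H cells alone by the probe set used, Mvk was the 1 not called here (0.30 ± 0.13, adjusted p = 0.108). With the mean of all probe sets of a gene, Fdft1 (0.26, adjusted p = 0.174) and Elovl6 (0.64, adjusted p = 0.0529) were not called, while Cyp51 (0.45, adjusted p = 0.00701), Acly (0.37, adjusted p = 0.00712) and Scd2 (0.42, adjusted p = 0.0328) were. With 1 array left out the count above 0 ran from 9 to 13, and the share of all genes from 14.6% to 15.8%. The call of Hmgcs1 (0.30 to 0.35) held only without replicate 1 of fl-CCs or of mt-CCs, and that of Sc5d (0.36 to 0.52) only without R175H replicate 1, fl-CC replicate 2 or mt-CC replicate 3. Srebf2 (0.39 to 0.50) lost its call without EV replicate 2 or R175H replicate 3, Stard4 (0.38 to 0.50) without these or mt-CC replicate 3, and Dhcr7 (-0.47 to -0.37) without R175H replicate 1 or 2 or fl-CC replicate 3.

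**Figure D4:**
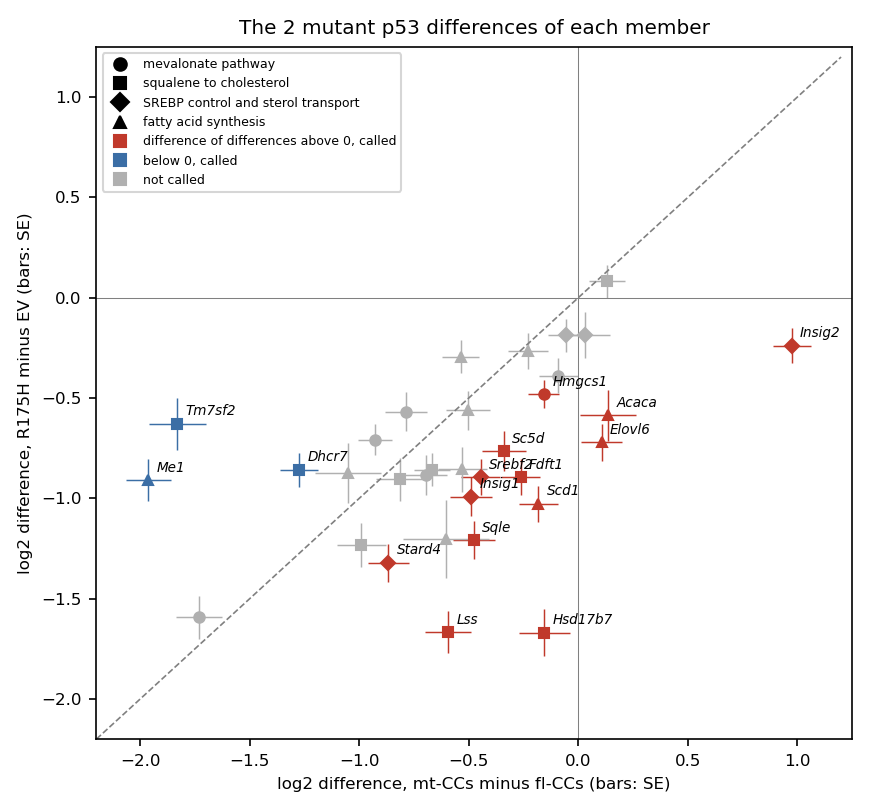
Log2 difference of each member in R175H minus EV (y axis) against mt-CCs minus fl-CCs (x axis), with SE bars and symbols by role; on the dashed line both are equal. Red points are the 13 members whose difference of differences was above 0 and blue points the 3 below 0, and Hsd17b7, Lss and Insig2 lie farthest from the line on the right, Tm7sf2 and Me1 on the left.

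Other genes of lipid metabolism were read in 6 lists. Of 10 other sterol synthesis and SREBP target genes, 3 were lower in mt-CCs, against 17.7% of all genes. In R175H cells 4 were lower and 2 higher, against 12.1% and 13% of all genes. Named by the largest differences, Rdh11, a retinol dehydrogenase, was -0.71 ± 0.11 in mt-CCs, and Stard5, a sterol carrier, was -0.86 ± 0.10 in mt-CCs but 0.49 ± 0.10 in R175H cells. Lpin1, a phosphatidate phosphatase, was -1.56 ± 0.13 in R175H cells (adjusted p = 4.94e-06), Tmem97, which binds NPC1, was -1.05 ± 0.14, and Mbtps2, the protease that makes the second cut of SREBP, was 0.37 ± 0.10.

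Of 12 genes of sterol uptake, trafficking and storage, 7 were higher and 2 lower in mt-CCs, against 18.3% and 17.7% of all genes. In R175H cells 1 was higher and 5 lower, against 13% and 12.1% of all genes. Cav1, the caveolar coat protein, and Npc1, which exports cholesterol from lysosomes, were 0.96 ± 0.09 and 0.78 ± 0.09 higher in mt-CCs. The lipoprotein receptor genes Lrp8 and Vldlr were lower in R175H cells (-1.06 ± 0.13 and -0.50 ± 0.12), and Lrp8 and the oxysterol binding protein gene Osbp were lower in mt-CCs (-0.82 ± 0.13 and -0.46 ± 0.09). Osbpl2 was 0.71 ± 0.13 higher in R175H cells.

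LXR, the receptor for oxysterols, turns on export of cholesterol. Of 7 measured LXR receptors and targets 2 were higher and 3 lower in mt-CCs, against 18.3% and 17.7% of all genes. In R175H cells 4 were higher and 1 lower, against 13% and 12.1% of all genes. Abca1, the cholesterol exporter, was near background (log2 below 5) in every fl-CC and EV array and averaged 9.34 in mt-CCs and 7.10 in R175H cells, so that its log2 difference was at least 4.34 and at least 2.10. Abcg1 was near background in both fl-CCs and mt-CCs, and at least 1.75 higher in R175H cells. Nr1h3, which encodes LXR alpha, was -1.33 ± 0.12 in mt-CCs and 1.37 ± 0.12 in R175H cells. Mylip, whose product degrades lipoprotein receptors, was at least 0.88 higher in mt-CCs, and Lpcat3, a phospholipid acyltransferase, was lower in both (-0.47 ± 0.09 and -0.62 ± 0.09).

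**Figure D5:**
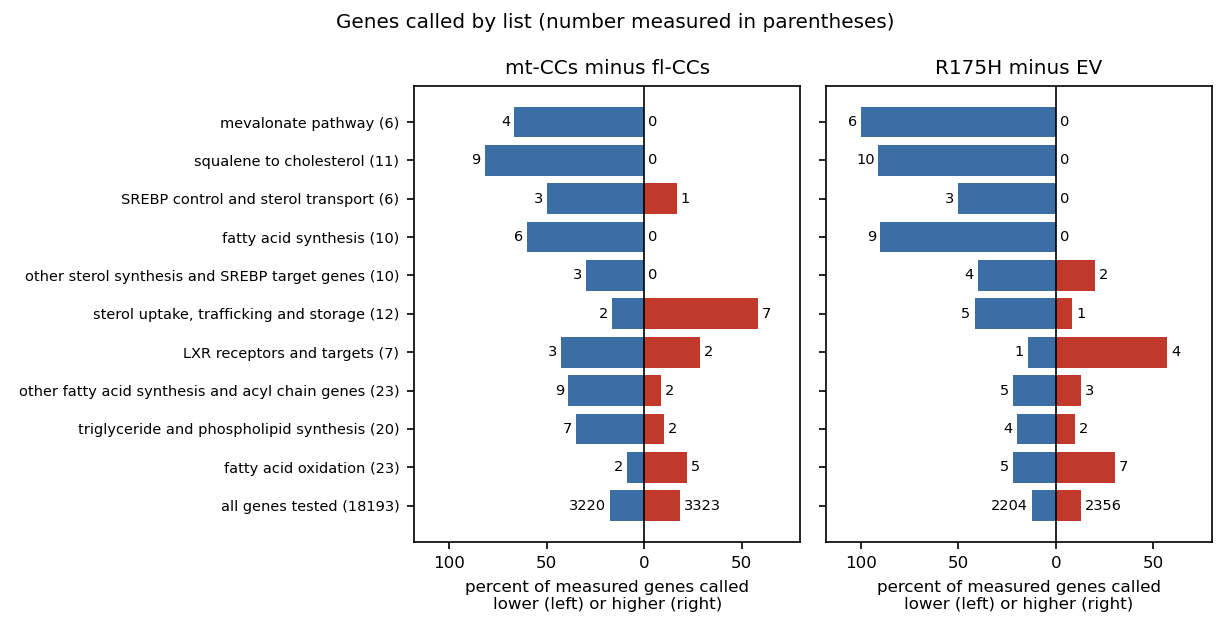
Percent of the measured genes of each list called lower (blue, to the left) or higher (red, to the right) in mt-CCs minus fl-CCs and R175H minus EV; the numbers beside the bars are genes. The 4 groups of members, at the top, have the longest blue bars in R175H minus EV, and all 18193 genes tested, at the bottom, have nearly equal bars on both sides.

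Of 23 other fatty acid synthesis and acyl chain genes, 9 were lower and 2 higher in mt-CCs, against 17.7% and 18.3% of all genes. In R175H cells 5 were lower and 3 higher, against 12.1% and 13% of all genes. Slc25a1, which exports citrate from mitochondria, was lower in both (-0.86 ± 0.15 and -0.53 ± 0.15). Elovl7 was -0.74 ± 0.11 in mt-CCs and Acsl3, an acyl-CoA synthetase, -0.85 ± 0.10 in R175H cells, while the elongation dehydratase Hacd2 was higher in both (0.74 ± 0.09 and 0.70 ± 0.09). Elovl5 was 0.32 ± 0.07 in mt-CCs and Hsd17b12 0.44 ± 0.08 in R175H cells.

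Of 20 genes of triglyceride and phospholipid synthesis, 7 were lower and 2 higher in mt-CCs, against 17.7% and 18.3% of all genes. In R175H cells 4 were lower and 2 higher, against 12.1% and 13% of all genes. Dgat2, which completes triglycerides, was -1.94 ± 0.11 in mt-CCs (adjusted p = 5.46e-08), and choline kinase Chka -1.52 ± 0.09. Chpt1 and Mogat2 were the lowest in R175H cells (-0.96 ± 0.09 and -1.23 ± 0.11). Agpat3 and Gpat3 were higher in mt-CCs (0.57 ± 0.13 and 0.40 ± 0.11), and Agpat2 and Pcyt1a in R175H cells (0.75 ± 0.09 and 0.33 ± 0.11).

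Of 23 genes of fatty acid oxidation, 5 were higher and 2 lower in mt-CCs, against 18.3% and 17.7% of all genes. In R175H cells 7 were higher and 5 lower, against 13% and 12.1% of all genes. Hadha, of the mitochondrial trifunctional protein, was 0.59 ± 0.09 higher in mt-CCs, as was Cpt1c (0.53 ± 0.13), and Cpt1a, the gatekeeper of fatty acid entry into mitochondria, was 0.93 ± 0.08 higher in R175H cells (adjusted p = 1.04e-05) with Hadhb (0.76 ± 0.08). Etfa was -0.51 ± 0.07 in mt-CCs, and in R175H cells Ppard was -0.50 ± 0.14 and Ehhadh at least 0.42 lower, since it was near background there.

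Markers of cell state and of other cell types were also read in mt-CCs against fl-CCs. Among all genes, 18.3% were called higher and 17.7% lower there. Of 8 ductal epithelial markers 6 were lower in mt-CCs, with a median log2 difference of -1.30 and a largest fall of -5.47. The mean log2 level of the 8 was 12.17 in fl-CCs and 10.20 in mt-CCs. The log2 of their summed level, in which bright genes weigh most, was 15.71 to 15.77 in fl-CCs (lowest and highest array). In mt-CCs it was 15.04 to 15.14. Krt8, Krt18 and Krt19 were high on all 12 arrays. Of 10 fibroblast markers 6 were higher, with summed levels of 7.82 to 8.22 in fl-CCs and 10.58 to 10.62 in mt-CCs. Lum, Thy1, Pdpn and Postn were near background on all 12 arrays. Of 9 hepatocyte markers 6 were lower (13.00 to 13.13 against 8.37 to 8.56), with Fga and Cps1 near background throughout. Of 7 leukocyte markers only Cd68 was called, higher in mt-CCs (summed levels 7.35 to 7.50 against 8.31 to 8.33), and Ptprc, Adgre1 and Cd3e were near background on every array. Of 8 adipocyte markers 1 was higher and 3 lower (11.02 to 11.10 against 10.41 to 10.63), and Adipoq, Lep and Lpl were near background on every array. Of 9 proliferation genes 1 was higher and 2 lower (13.97 to 14.47 against 14.14 to 14.18). Their part in the result was not tested.

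The same lists were read in R175H cells against EV cells, where 13% of all genes were called higher and 12.1% lower. Ductal markers were higher for 2 and lower for 3 of 8 (15.66 to 15.73 in EV cells, 15.48 to 15.50 in R175H cells), and adipocyte markers were higher for 2 and lower for 2 of 8 (10.94 to 11.03 against 10.88 to 10.93). Limma called 0 of 10 fibroblast markers (8.21 to 8.33 against 8.36 to 8.43) and 0 of 7 leukocyte markers (7.33 to 7.51 against 7.33 to 7.38), and 0 of either had an unadjusted p below 0.05. Hepatocyte markers were higher for 5 of 9 (11.98 to 12.09 against 12.90 to 13.11). Proliferation genes were higher for 4 of 9 (13.49 to 13.53 against 13.82 to 13.85). In EV cells against fl-CCs, 8 of the 9 had been lower, against 7.24% of all genes. Their part in the members' differences was not tested.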

How the data were processed

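Total RNA of 12 cultures was hybridised to Affymetrix whole-genome mouse arrays. The authors normalised and summarised the probe sets with RMA, and deposited log2 intensities. Of 45101 probe sets the 64 controls were left out, and 45037 were fitted with limma 3.58.1 in R 4.3.3 (lmFit and eBayes, 4 group means, no covariate), with Benjamini-Hochberg adjustment over all of them. The fit was tested on simulated data. Genes were counted by the probe set with the highest mean among those with 1 symbol (34945 probe sets, 18193 genes). Log2 values below 5 were taken as near background, where differences are lower bounds. The members and lists were chosen with earlier results of these data known. All members were named; from each other list, the 2 largest rises and falls called in each mutant p53 comparison. In each role group the 2 largest differences, and members with a called difference of differences, were given array by array. Array number limits the precision. The alternatives cover the fit, filter, fold limit, probe set choice, scaling, replicate block and omitted arrays. Promoters were searched over the 250 bases before the start, and the 50 bases after it were not used. The version of the RMA software is not given in the sources used here.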

Additional observations from a re-analysis of the deposited data

Results flagged for a closer look

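For 16 members the difference in mt-CCs and the difference in R175H cells were themselves different at an adjusted p of 0.05 or less. Each value is the log2 difference of mt-CCs minus fl-CCs less that of R175H cells minus EV cells. It was called above 0 for 13 of the 33 members and below 0 for 3, against 16.1% and 15.9% of all genes. In the mevalonate pathway it was 0.32 for Hmgcs1. From squalene to cholesterol it was 0.63 for Fdft1, 0.73 for Sqle, 1.07 for Lss, 1.51 for Hsd17b7 and 0.43 for Sc5d, and with the larger fall in mt-CCs -1.20 for Tm7sf2 and -0.42 for Dhcr7. Among the control genes it was 0.45 for Srebf2, 0.50 for Insig1, 1.21 for Insig2 and 0.45 for Stard4. In fatty acid synthesis it was 0.72 for Acaca, 0.85 for Scd1, 0.83 for Elovl6 and -1.05 for Me1. Endogenous and transfected mutant p53 also differ in species, selection medium and parent line, and these cannot be told apart.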

How the results depend on the processing

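The median member difference stayed below 0 in mt-CCs and in R175H cells under every alternative run. The share of all genes called the same way under the same setting stands in parentheses. When only differences of 1 or more on the log2 scale counted, 5 members were lower (5.01%) and 0 higher (5.33%) in mt-CCs, 8 lower in R175H cells (2.16%), 0 higher (1.57%) and 0 lower (1.67%) in EV cells, and 3 above 0 in the difference of differences (6.76%). The study's authors chose the probe set with the smallest adjusted p, which here was an alternative. With it, 2 members were higher in mt-CCs (22.2%), 7 higher (10.4%) and 2 lower (9.2%) in EV cells. The median difference of differences was then 0.54. With the mean of all probe sets the median was -0.34 in mt-CCs and 0.35 for the difference of differences, and 8 members were higher (9.84%) and 0 lower (8.78%) in EV cells. With an intensity trend 8 members were higher in EV cells (9.96%) and 5 below 0 in the difference of differences (17.7%). In EV cells 5 were higher with array weights (9.2%), 5 higher (13.9%) and 2 lower (13.6%) over probe sets with a mean of at least 5, and 0 lower in a fit of the 2 groups alone (5.22%). By arrays that do not overlap, 2 members were higher in mt-CCs (23.7%) and 18 higher (17.7%) and 4 lower (18.1%) in EV cells. Exact permutation of 3 against 3 arrays cannot go below p = 0.1. Chosen after seeing the data were the omission of probe sets named _s_at or _x_at (median difference of differences 0.30) and fl-CCs in place of EV cells (median -0.74).

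Array numbers did not pair the cultures: deviations of same-numbered arrays correlated at -0.09 to 0.06 over 18 pairs, and 2 of 12 arrays matched their own number best. With the number as a replicate block, 0 members were lower in EV cells (6.26%) and the other 11 counts and medians stayed within 1.5 times or the replicate spread.

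With 1 array left out, the shares of all genes over the same omissions stand in parentheses. Members lower in mt-CCs numbered 19 to 22 (15.4% to 17.4%) and higher 1 to 1 (16% to 18.1%), with medians of -0.55 to -0.47. In R175H cells 27 to 29 were lower (9.27% to 12.7%) and 0 to 0 higher (10.2% to 13.5%), with medians of -0.89 to -0.82. In EV cells 2 to 5 were higher (5.52% to 8.06%) and 0 to 1 lower (5.13% to 7.48%), with medians of 0.093 to 0.17. In the difference of differences 9 to 13 were above 0 (14.6% to 15.8%) and 2 to 3 below (14.2% to 15.5%), with medians of 0.20 to 0.31. For single members under all alternatives, 2964 values kept their call or stayed without one, 132 lost the call and 70 gained one. Another 2 turned: Acss2 in EV cells to -0.51 with the smallest adjusted p and Sc5d in mt-CCs to 0.010 with the mean of all probe sets. A change of sign was counted as a turn only where the value was called in the main fit or in the alternative. The cause was not tested.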

Other observations

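Within R175H cells replicate 1 was the highest of the 3 arrays for 26 of the 33 members, and within fl-CCs replicate 1 was the lowest for 25 of 33. The mean log2 level of the members was 10.60 in R175H replicate 1 against 10.45 and 10.43 in the others, and 11.10 in fl-CC replicate 1 against 11.18 and 11.18.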
